A study of Mus musculus with 12 samples.

Results

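Mitochondrial ribosomal protein transcripts were followed through 3 successive stages of early T cell development in the mouse thymus. The family was taken as every gene whose only symbol in the platform annotation begins with Mrpl or Mrps followed by a digit, and each gene was read from its brightest probe set. The rule found 76 genes of 18193 on the array, 47 named for the large subunit (Mrpl) and 29 for the small subunit (Mrps), and all 76 lay among the 11170 genes that passed the filter on dim signals. The symbols Mrpl30 and Mrpl53 occur only on probe sets shared with another gene symbol and were therefore not members. Thymocytes came from untreated female C57BL/6 mice of 5 to 6 weeks. Double negative (DN) cells, which lack CD4 and CD8, were enriched on magnetic columns and sorted by flow cytometry into DN2 (CD44+CD25+), DN3 (CD44-CD25+) and DN4 (CD44-CD25-). The sort left out cells that bound antibodies to TCR gamma-delta, NK1.1, CD3, CD8 or CD4. There were 4 sorts, each from the pooled cells of 4 mice (16 mice), and every sort yielded DN2, DN3 and DN4 RNA for 1 Affymetrix Mouse Genome 430 2.0 array per stage. The 12 arrays thus form 3 groups of 4, and arrays of the same sort number share their source. The pools do not show how single mice varied, and the number of arrays limits the precision.

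Mitochondria carry their own ribosome, which makes the few inner membrane proteins that mitochondrial DNA encodes, all of them parts of the respiratory chain or ATP synthase. Its RNA comes from mitochondrial DNA, whereas its proteins are encoded in the nucleus, made in the cytosol and imported, so each organelle ribosome joins products of both genomes. Some of these proteins descend from bacterial ribosomal proteins, and others exist only in mitochondria. Between DN2 and DN4, thymocytes commit to the T lineage, rearrange the T cell receptor beta gene, pass beta selection at DN3 and enter a burst of division; growing cells of this kind build up mitochondria.

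The promoters of the members are shown first, because the members changed together and because RefSeq starts of 25 of the 67 members found in the RefSeq promoter table of GRCm38.p6 faced a start of another gene on the opposite strand within 1000 bases (37.3%, against 3303 of 27025 genes, 12.2%). No entry was found for Mrpl4, Mrpl13, Mrpl15, Mrpl19, Mrpl38, Mrpl54, Mrps28, Mrps34 and Mrps35. In windows from 250 bases before to 50 bases after each start, both strands were searched for GCGCATGC (bound by NRF1), CCGGAAGT (bound by ETS factors such as GABP), AAGATGGC (bound by YY1), the E-box CACGTG (bound by MYC and other factors) and TATAAA. None of these motifs contains another. NRF1 and GABP are textbook activators of nuclear genes for mitochondrial proteins. The NRF1 motif was in 8 of 67 members (11.9%, against 3.05% of genes and 2.71% of all promoter windows). The ETS motif was in 12 (17.9%, against 4.31% and 3.89%), and the YY1 motif also in 12 (17.9%, against 3.19% and 2.75%). The E-box was in 5 (7.46%, against 8.09% and 7.15%), and TATAAA in 5 (7.46%, against 15.7% and 13.6%). At least 1 of the NRF1, ETS and YY1 motifs was in 29 members (43.3%), against 9.91% of genes. These shares of genes, and the 12.2% with facing starts, cover all 27025 genes of the promoter table. That set was not limited to genes that passed the filter on dim signals, as all members did. Whether the members also exceed the other genes that passed the filter was not tested. A match is a description of the letters, not of a bound site.

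The 5 stretches below, from RefSeq and GRCm38.p6, end 1 base before a RefSeq start of the gene named and are shorter where a neighbouring gene begins. Capitals mark the motifs. Mrps22 and Mrps27 are shown as the small subunit members with the greatest rise from DN2 to DN4, and Mrpl46 with Mrps11 because these members share 1 stretch between opposed starts. Mrpl17 and Mrpl36 were chosen for the NRF1 and the YY1 motif. Each is the holder with the greatest rise from DN2 to DN4 whose match lies in the stretch printed. The Mrpl36 stretch ends before a start at 73331009, which lies inside the span given for that gene, 73328503 to 73332178 on chromosome 13.
Mrps22, chr9:98601680-98601929, minus strand, ETS motif beginning 11 bases before the start: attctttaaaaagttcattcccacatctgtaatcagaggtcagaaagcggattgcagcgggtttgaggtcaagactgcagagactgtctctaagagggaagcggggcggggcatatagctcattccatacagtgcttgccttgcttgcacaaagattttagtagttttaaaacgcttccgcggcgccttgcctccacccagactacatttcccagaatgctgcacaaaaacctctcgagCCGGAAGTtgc
Mrps27, chr13:99344679-99344785, plus strand, ETS motif on the reverse strand beginning 49 bases before the start: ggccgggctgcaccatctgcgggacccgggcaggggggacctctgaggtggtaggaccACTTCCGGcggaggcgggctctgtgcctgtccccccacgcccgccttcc
Mrpl46, chr7:78783090-78783130, minus strand, the 41 bases between its start and that of Mrps11: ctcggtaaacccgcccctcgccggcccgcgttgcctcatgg
Mrpl17, chr7:105811088-105811337, minus strand, NRF1 motif beginning 11 bases before the start: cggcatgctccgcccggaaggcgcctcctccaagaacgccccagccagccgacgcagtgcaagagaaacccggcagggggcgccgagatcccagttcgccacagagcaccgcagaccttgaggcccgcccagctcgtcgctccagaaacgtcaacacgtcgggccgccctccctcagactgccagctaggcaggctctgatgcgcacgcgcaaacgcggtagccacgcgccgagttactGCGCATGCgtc
Mrpl36, chr13:73330759-73331008, plus strand, YY1 motif on the reverse strand beginning 30 bases and E-box beginning 43 bases before the start: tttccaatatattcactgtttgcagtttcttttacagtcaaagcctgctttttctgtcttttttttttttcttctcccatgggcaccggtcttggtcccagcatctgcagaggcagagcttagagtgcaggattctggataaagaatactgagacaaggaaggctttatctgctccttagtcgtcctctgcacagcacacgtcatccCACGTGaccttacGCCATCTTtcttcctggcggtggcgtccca

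The sort markers were measured first. Cd44 fell by 3.69 ± 0.15 (SE) on the log2 scale from DN2 to DN3 (limma adjusted p = 5.98e-06), and Il2ra, which encodes CD25, fell by 3.56 ± 0.16 from DN3 to DN4 (limma adjusted p = 9.04e-06). Kit, a receptor of early progenitors, fell by 2.94 ± 0.11 from DN2 to DN4 (limma adjusted p = 9.96e-07). Cd8a and Cd8b1, which encode CD8, rose over the same interval by 3.48 ± 0.26 and 5.12 ± 0.31 (limma adjusted p = 2.53e-05 and 7.94e-06) and were called higher at each step, although CD8+ cells had been removed, and Cd4 did not pass the filter. Of the T lineage markers, 7 of 7 on the array passed the filter, with summed signals of 8980 to 12300 in DN2, 17600 to 20900 in DN3 and 11400 to 13600 in DN4. Markers of other cells also moved with the stage. Of the mast cell markers, 1 of 5 passed (Cpa3), and the summed signals were 2730 to 3780 in DN2, 74.1 to 226 in DN3 and 34.6 to 68.2 in DN4. Of the myeloid markers 5 of 7 passed, with sums of 382 to 987, 132 to 243 and 92.3 to 185 in the same order, and of the natural killer markers 2 of 4 passed, with 176 to 356, 23 to 48.1 and 21.9 to 59.8. Dendritic markers (3 of 6) summed to 275 to 620, 151 to 298 and 175 to 709, B cell markers (3 of 5) to 216 to 279, 194 to 240 and 154 to 210, erythroid markers (1 of 4) to 33.5 to 45.7, 41 to 60.9 and 72.5 to 128, and thymic stroma markers (5 of 7) to 254 to 400, 470 to 691 and 246 to 337. The markers that did not pass the filter included Itgam, Cd14, Cd79a, Ncr1, Mcpt1, Ms4a2, Fcer1a, Alas2, Epor, Psmb11 and Col1a1, and not all of them are named here. The part of such cells in the results was not tested. The Gapdh 3′ over 5′ ratio, a sign of RNA quality, was 1.39 ± 0.32, 1.04 ± 0.17 and 1.16 ± 0.21 on the log2 scale (mean ± SD, n = 4) in DN2, DN3 and DN4. In bulk samples, fewer cells of a type and less RNA per cell cannot be told apart.

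Mitoribosomal protein transcripts rose from DN2 to DN4, and no member was called lower in any comparison. Levels here are log2(signal + offset) after quantile normalization, differences are on that scale with standard errors from limma (n = 4 arrays per stage, sort number as a block), and a gene is called where the p-value adjusted over all 11170 genes is under 0.05. The median level over the 76 members was 9.31 to 9.39 on the 4 DN2 arrays, 9.45 to 9.63 on the DN3 arrays and 9.67 to 9.85 on the DN4 arrays, so the stages did not overlap. The median over all tested genes was 7.78 to 7.83 on every array, but quantile normalization holds that median nearly constant by its design. From DN2 to DN4, 63 of 76 members were called higher (82.9%), beside 24.8% of all genes called higher and 22% called lower. From DN2 to DN3, 18 were called higher (23.7%), beside 9.96% of all genes higher and 11% lower, and from DN3 to DN4, 36 (47.4%), beside 15.4% and 14.9%. The median difference was 0.47 over the whole interval (1.39-fold), 0.19 at the first step (1.14-fold) and 0.28 at the second (1.22-fold), beside 0.06, 0.02 and 0.05 over all genes tested. Comparisons that share a stage share its arrays.

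The members shared a direction more than a size. In DN4 against DN2, 73 of the 76 differences were above 0, beside 6132 of 11170 for all genes. In all 4 sorts 66 members were higher (beside 30.9% of all genes). The 4 DN4 values lay wholly above the 4 DN2 values for 50 members (beside 17% of all genes). At the first step 16 members were wholly above (beside 8.1%) and at the second 28 (beside 12.5%), and none was wholly below in any comparison. The DN3 mean lay between the DN2 and DN4 means for 63 members, a count not taken over all genes. By sort, the median difference of the members from DN2 to DN4 was 0.60, 0.45, 0.42 and 0.38 in sorts 1, 2, 3 and 4. It was 0.31, 0.19, 0.07 and 0.20 for the first step and 0.35, 0.25, 0.34 and 0.25 for the second, above 0 in every sort. Over the whole interval 23 members reached 1.5-fold and 3 reached 2-fold, and no member was 1.5-fold lower in any comparison. How many of all genes did so was not counted. The quartiles of the differences over that interval were 0.34 and 0.64 for the members and -0.32 and 0.37 for all genes tested.

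**Figure D1:**
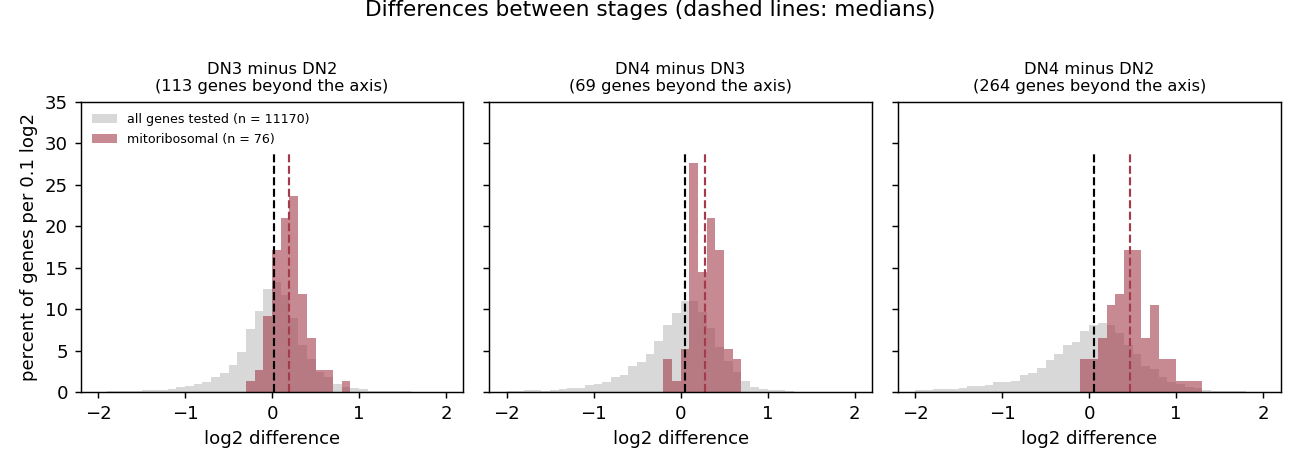
Histograms of log2 differences in the 3 comparisons, as the percent of genes per 0.1 log2, for the 76 members (red) and all 11170 genes tested (grey), with medians dashed. The members lie mostly right of 0, with medians of 0.19, 0.28 and 0.47 in the order of the panels, whereas all genes centre on 0.02, 0.05 and 0.06.

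These directions are relative to the other transcripts of each array. The deposited median signal was 15.2 to 18.1 on the DN4 arrays, 16.7 to 28.1 on the DN2 arrays and 19.8 to 25.8 on the DN3 arrays. With no normalization between arrays, the median of all genes moved by 0.13, -0.41 and -0.29 in DN3 against DN2, DN4 against DN3 and DN4 against DN2, and the member median was 0.33, -0.16 and 0.17. Then 5, 0 and 9 members were called higher, beside 4.97%, 0.589% and 3.89% of all genes. At the second step 2 members were called lower, beside 3880 of 11202 genes. Yet 67, 71 and 74 of the 76 members stayed above the median of all genes. With each array centred on its median, 21, 20 and 66 members were called higher and none lower. The shares of all genes called higher were then 12.5%, 10.1% and 25.2%.

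The greatest rise from DN2 to DN4 was that of Mrpl37, a large subunit protein found in mitochondria and not in bacteria (chromosome 4, 107055874 to 107066866 in GRCm38.p6). Its levels were 6.81, 7.18, 7.18 and 7.37 in DN2 sorts 1 to 4, 7.76, 8.30, 7.66 and 8.06 in DN3, and 8.16, 8.22, 8.47 and 8.52 in DN4. All DN3 and DN4 values lay above all DN2 values, while DN3 and DN4 overlapped. The rise was 1.21 ± 0.13 (2.31-fold, limma adjusted p = 1.88e-04), of which 0.81 ± 0.13 fell in the first step (limma adjusted p = 0.00405) and 0.39 ± 0.13 in the second, which was not called (limma adjusted p = 0.056). Mrpl1, the counterpart of the bacterial protein that forms the mobile stalk beside the tRNA exit site, measured 6.60, 6.75, 7.96 and 7.45 in DN2, 7.89, 7.29, 8.03 and 8.09 in DN3, and 8.24, 7.92, 8.70 and 8.65 in DN4. Its DN2 arrays spread over more than 1 log2 unit and reached into the DN4 range, but each sort ascended from stage to stage. The fitted rise was 1.19 ± 0.17 (2.28-fold, limma adjusted p = 6.45e-04). It was called at both steps (0.64 ± 0.17 and 0.55 ± 0.17), but the first call was lost without any 1 of DN2 replicates 1, 2 and 4 and DN3 replicates 1, 2 and 4 (limma adjusted p up to 0.0865), and the second without any 1 of 9 arrays (up to 0.117), DN2 replicates 1 and 3 and DN3 replicate 1 being those that kept it.

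Mrps22 and Mrps27 led the small subunit, and both encode proteins with no bacterial counterpart. Mrps22 (chromosome 9, 98588730 to 98601679) measured 9.08, 8.61, 8.89 and 8.92 in DN2, 9.61, 9.13, 9.17 and 9.29 in DN3, and 10.26, 9.91, 9.74 and 9.78 in DN4. The stages did not overlap, and the whole rise was 1.05 ± 0.09 (2.07-fold, limma adjusted p = 6.17e-05). Its steps were 0.42 ± 0.09 (limma adjusted p = 0.0146) and 0.63 ± 0.09 (limma adjusted p = 0.00215), and the first lost its call without DN3 replicate 4 (limma adjusted p = 0.0519). Mrps27 (chromosome 13, 99344767 to 99415562), a pentatricopeptide repeat protein, measured 7.13, 7.42, 7.38 and 7.69 in DN2, 7.51, 7.72, 7.58 and 7.92 in DN3, and 8.25, 8.40, 8.23 and 8.49 in DN4. DN2 and DN3 overlapped, and all DN4 values lay above both. The second step was 0.66 ± 0.08 (1.58-fold, limma adjusted p = 7.21e-04) and the whole rise 0.94 ± 0.08 (1.92-fold, limma adjusted p = 3.83e-05). The first step, 0.28 ± 0.08, was called with all arrays (limma adjusted p = 0.0363) but kept its call only without DN4 replicate 1 or 4, with a limma adjusted p of up to 0.104 without another array. Both carry the ETS motif printed above.

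**Figure D2:**
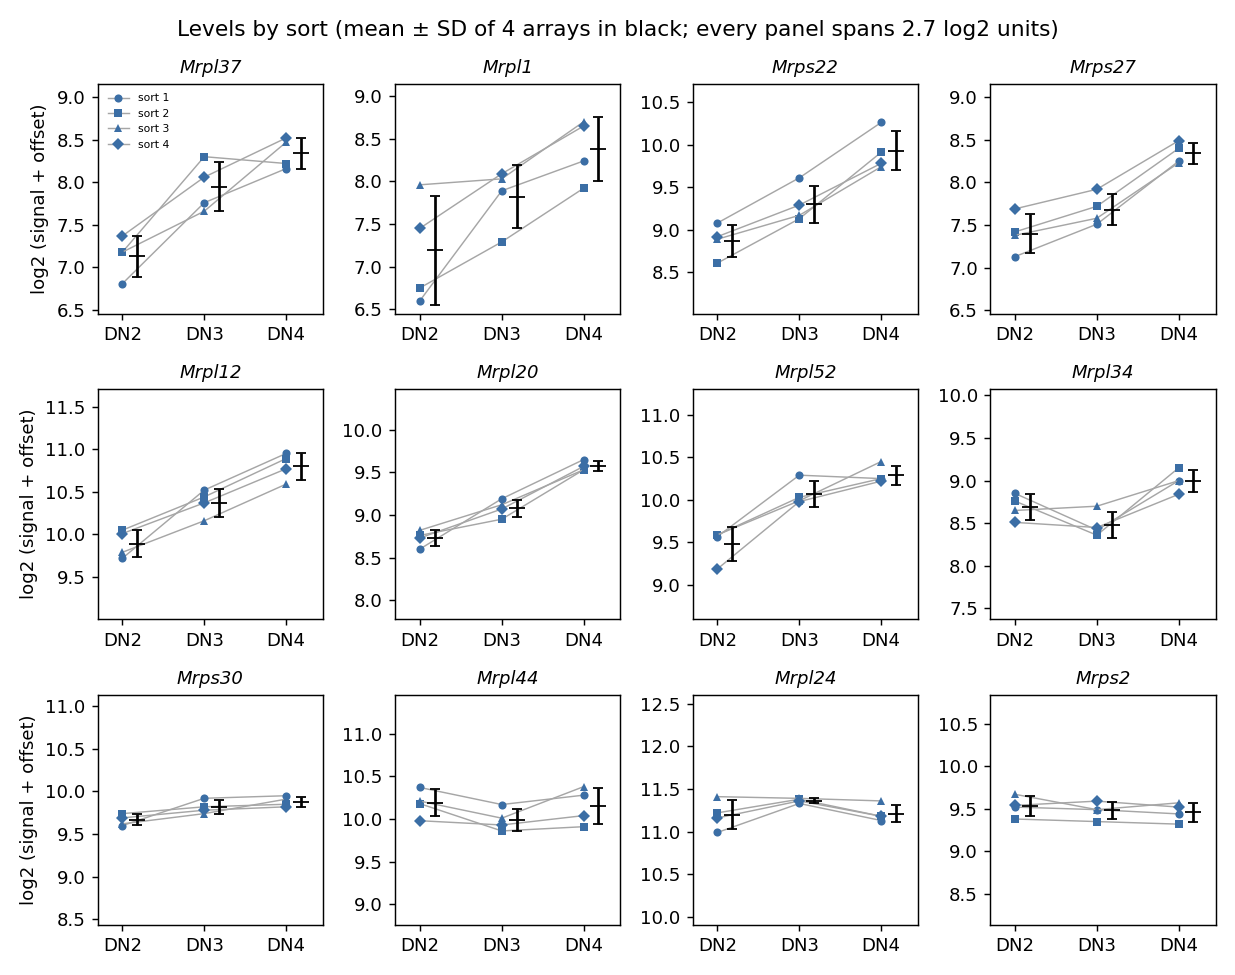
Levels of 12 members by stage (horizontal axis) as log2(signal + offset), with grey lines joining the arrays of a sort and the mean ± SD of 4 arrays in black; every panel spans 2.7 log2 units. Mrps22, Mrpl12 and Mrpl20 step up at both steps, Mrpl52 mainly at the first step, and Mrps27 and Mrpl34 mainly at the second. The difference between the steps was not called for Mrpl52 or Mrps27 (limma adjusted p = 0.228 and 0.098). Mrpl44, Mrpl24 and Mrps2 stay within overlapping ranges.

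The other 6 members among the 10 greatest whole rises were Mrps36, Mrpl12, Mrpl47, Mrpl20, Mrpl52 and Mrpl17, at 0.92 ± 0.15, 0.91 ± 0.10, 0.87 ± 0.09, 0.84 ± 0.09, 0.81 ± 0.10 and 0.78 ± 0.14 (limma adjusted p from 1.15e-04 to 0.0022). All 10 were higher in 4 of 4 sorts, and 9 of them were wholly above DN2, Mrpl1 being the exception. Mrps36 was named as a small subunit protein but is now known as a component of the 2-oxoglutarate dehydrogenase complex of the citric acid cycle. It measured 7.60, 8.31, 8.47 and 8.30 in DN2, 8.35, 8.63, 8.52 and 8.62 in DN3, and 9.13, 8.95, 9.15 and 9.12 in DN4, so that DN4 lay above both other stages. Its second step of 0.56 ± 0.15 was called (limma adjusted p = 0.021) but not without DN3 replicate 3, DN3 replicate 4 or DN4 replicate 1 (up to 0.0698), and its first step of 0.36 ± 0.15 was not called (0.115). Of the 63 members called over the whole interval, 48 kept the call whichever of the 12 arrays was left out, these 10 among them. Without the sort as a block 50 were called, beside 17.9% of all genes. Of the members named here, Mrpl3, Mrpl34, Mrps15, Mrps21 and Mrps30 lost the call.

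At the first step, DN2 to DN3, the members called were 13 of the large subunit and 5 of the small. Mrpl37, Mrpl17, Mrpl52, Mrpl12 and Mrpl4 kept their call with any 1 array left out. Mrpl52, a large subunit protein of mitochondria only, measured 9.57, 9.59, 9.59 and 9.19 in DN2, 10.29, 10.03, 9.99 and 9.98 in DN3, and 10.25, 10.25, 10.45 and 10.22 in DN4. It had thus reached most of its DN4 level by DN3: the first step was 0.58 ± 0.10 (1.5-fold, limma adjusted p = 0.00543), and the second, 0.22 ± 0.10, was not called (limma adjusted p = 0.133). Mrpl17, a counterpart of a bacterial protein near the mouth of the exit tunnel, measured 8.11, 8.43, 8.42 and 8.52 in DN2, 9.34, 9.0, 8.88 and 8.95 in DN3, and 9.40, 9.01, 9.09 and 9.12 in DN4. Its first step was 0.67 ± 0.14 (1.59-fold, limma adjusted p = 0.0115) and its second 0.11 ± 0.14 (limma adjusted p = 0.583). Its other probe sets, with mean levels of 4.17 and 4.90, gave -0.45 and -0.36 at the first step, so the rise rests on the bright one. Mrpl54, Mrps6, Mrpl9 and Mrps24 were called at 0.57 ± 0.14, 0.46 ± 0.14, 0.46 ± 0.12 and 0.44 ± 0.13, with calls that rested on single arrays. Mrpl54 lost its call without DN2 replicate 3 or DN3 replicate 1 or 4 (limma adjusted p up to 0.0752), and Mrpl9 without DN2 replicate 1, 2 or 3 or DN3 replicate 1, 2 or 4 (up to 0.102). Mrps6 kept it only without DN2 replicate 3 or DN4 replicate 3 (up to 0.133 otherwise), and Mrps24 only without DN3 replicate 3 (up to 0.118 otherwise).

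The count of 18 was 11, 10, 9, 10 and 5 without DN2 replicate 2, DN2 replicate 4, DN3 replicate 1, DN3 replicate 2 and DN3 replicate 4. The shares of all genes called higher were then 7.84%, 6.95%, 6.73%, 6.39% and 6.37%. Without the sort as a block the count was 6 (beside 4.78% of all genes), namely Mrpl37, Mrpl17, Mrpl52, Mrpl12, Mrpl54 and Mrpl20. With the Gapdh ratio, which was highest in DN2, as a covariate it was 0, beside 1.41% of all genes. The member median in that fit was 0.15, beside 0.03 over all genes. The median standard error over all genes was 0.21, against 0.13 in the main fit.

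At the second step, DN3 to DN4, 22 members named for the large subunit and 14 named for the small were called higher. Of these 36, 19 kept the call with any 1 array left out. Mrpl20, the counterpart of a bacterial protein needed early in large subunit assembly, measured 8.60, 8.76, 8.82 and 8.73 in DN2, 9.19, 8.95, 9.12 and 9.07 in DN3, and 9.65, 9.53, 9.53 and 9.57 in DN4. Its stages did not overlap, and it rose by 0.35 ± 0.09 at the first step (limma adjusted p = 0.0206) and 0.49 ± 0.09 at the second (limma adjusted p = 0.00411). The first of these was lost without DN2 replicate 4 or DN3 replicate 1, 3 or 4 (limma adjusted p up to 0.0668). Mrpl42 and Mrpl55, both large subunit proteins of mitochondria only, rose at this step by 0.50 ± 0.11 and 0.54 ± 0.13, and Mrps18b and Mrps14 of the small subunit by 0.45 ± 0.10 and 0.40 ± 0.10. Mrpl58, a peptidyl-tRNA hydrolase that frees stalled mitochondrial ribosomes and also sits in the large subunit, rose by 0.41 ± 0.07. The limma adjusted p of these 5 ran from 0.00431 to 0.0148. The count of 36 was 23 without DN3 replicate 3, 21 without DN4 replicate 1 and 20 without the sort as a block. The shares of all genes called higher were then 10.9%, 10% and 7.17%. Among the members named here, the fit without the block did not call Mrpl1, Mrpl3, Mrpl4, Mrpl15, Mrpl36, Mrpl38, Mrpl42, Mrpl47, Mrpl49, Mrpl55, Mrps18a and Mrps21 at this step.

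Both steps were called for 8 members (Mrpl1, Mrpl4, Mrpl12, Mrpl20, Mrpl47, Mrpl49, Mrps22 and Mrps27), though Mrpl47 lost the first without DN3 replicate 1 or 4 (limma adjusted p up to 0.0623), Mrpl49 the first without DN2 replicate 4 or DN3 replicate 2 or 4 (up to 0.0566) and Mrpl4 the second without DN3 replicate 1, 2 or 4 or any 1 DN4 array (up to 0.0798). The first step alone was called for 10 and the second alone for 28. A further 18 were called over the whole interval and at neither step, and 12 in no comparison. A call at 1 step and not the other does not show that the steps differ, so the difference between the steps was tested directly, as a contrast chosen after the data were seen. The second step exceeded the first for 3 of 76 members (3.95%, beside 5.97% of all genes), and the reverse held for none (beside 6.4%). Both shares lay below those of all genes, and no alternative was run for this contrast. Mrpl34, the counterpart of a small bacterial large subunit protein, measured 8.85, 8.76, 8.65 and 8.51 in DN2, 8.42, 8.36, 8.70 and 8.45 in DN3, and 9.0, 9.15, 9.0 and 8.84 in DN4. Its steps were -0.21 ± 0.10 (limma adjusted p = 0.188) and 0.52 ± 0.10 (limma adjusted p = 0.00775), and they differed by 0.73 ± 0.18 (limma adjusted p = 0.036). The whole difference of Mrpl34, 0.30 ± 0.10, was called (limma adjusted p = 0.0424) but not without any 1 of 8 arrays (up to 0.132), of which DN2 replicate 1 and DN3 replicates 1, 2 and 3 were no part, and it was -0.06 with no normalization between arrays. Mrps7, the counterpart of the bacterial protein that organizes the head of the small subunit, had steps of -0.08 ± 0.07 and 0.43 ± 0.07, which differed by 0.51 ± 0.13 (limma adjusted p = 0.0337). Mrpl3, the counterpart of a protein near the catalytic center, had -0.08 ± 0.08 and 0.45 ± 0.08, which differed by 0.53 ± 0.14 (limma adjusted p = 0.0428). Mrpl14 was called at the second step (0.63 ± 0.19, limma adjusted p = 0.0335) but not over the whole interval (0.50 ± 0.19, limma adjusted p = 0.0549), and the first of these was lost without DN3 replicate 1, 3 or 4 or DN4 replicate 1, 3 or 4 (limma adjusted p up to 0.104).

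Members named for either subunit were called higher, and the difference between these groups was not tested. The groups follow the symbols alone, so Mrps30, Mrps18a and Mrps36 count with the small subunit here and in the figures. The median from DN2 to DN4 was 0.51 over 47 genes named for the large subunit and 0.42 over 29 named for the small, with 38 and 25 called higher. At the first step the medians were 0.21 and 0.15, with 13 and 5 called and 6 and 0 without the sort as a block, and at the second 0.29 and 0.28. Members with a bacterial counterpart (44) and members found in mitochondria and not in bacteria (30) both had a median of 0.47 over the whole interval, with 34 and 27 called higher. Their first steps were 0.18 and 0.20 at the median and their second steps 0.28 and 0.28. Mrps30 and Mrps18a carry a small subunit name but sit in the large subunit, and both were called higher over the whole interval, by 0.22 ± 0.08 (limma adjusted p = 0.0445) and 0.43 ± 0.07 (limma adjusted p = 0.00201). The call of Mrps30 held only without DN2 replicate 2 or DN3 replicate 1, with a limma adjusted p of up to 0.126 without another array. Mrps18a also rose at the second step (0.27 ± 0.07, limma adjusted p = 0.0262), a call that was lost without DN3 replicate 1, 2 or 3 or any 1 DN4 array (up to 0.0906).

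The stalk of the large subunit recruits the elongation factors, and 2 of its 3 members rose. Mrpl12, the stalk protein itself, which is also known to bind the mitochondrial RNA polymerase, measured 9.72, 10.05, 9.79 and 10.01 in DN2, 10.52, 10.44, 10.16 and 10.37 in DN3, and 10.95, 10.89, 10.59 and 10.77 in DN4. Its stages did not overlap, and it rose by 0.48 ± 0.10 (limma adjusted p = 0.00931), then 0.43 ± 0.10 (limma adjusted p = 0.0123). Mrpl10, which holds Mrpl12 on the ribosome, measured 8.23, 8.07, 8.15 and 8.12 in DN2, 8.05, 8.33, 8.51 and 8.57 in DN3, and 8.68, 8.66, 8.85 and 8.85 in DN4. It rose by 0.62 ± 0.11 over the whole interval (limma adjusted p = 0.00174) and by 0.40 ± 0.11 at the second step (limma adjusted p = 0.0236), the latter lost without DN3 replicate 1, DN3 replicate 2 or any 1 DN4 array (up to 0.065). Mrpl11, at the stalk base, stood at the threshold, with 0.19 ± 0.07 over the whole interval (limma adjusted p = 0.05, not called).

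Around the peptide exit tunnel, 5 of 8 members were called higher from DN2 to DN4, with 2 called at each step. They were Mrpl47 (0.87 ± 0.09), Mrpl17 (0.78 ± 0.14), Mrpl39 (0.43 ± 0.12), Mrpl45 (0.42 ± 0.10) and Mrpl23 (0.39 ± 0.09), with a limma adjusted p from 1.37e-04 to 0.0165. Mrpl39 lost its call without DN2 replicate 1, DN2 replicate 2 or DN4 replicate 2 (up to 0.0534). Mrpl47 measured 8.66, 8.42, 9.10 and 8.92 in DN2, 9.25, 8.76, 9.33 and 9.36 in DN3, and 9.75, 9.37, 9.79 and 9.67 in DN4, with all DN4 values above the other stages. Mrpl45, which anchors the ribosome to the inner membrane, measured 8.41, 8.51, 8.51 and 8.49 in DN2, 8.68, 8.21, 8.58 and 8.55 in DN3, and 9.07, 8.74, 8.96 and 8.82 in DN4. Its second step, 0.39 ± 0.10, was called (limma adjusted p = 0.0186) but not without DN3 replicate 2 or DN4 replicate 1 (up to 0.0662), and its first was 0.02 ± 0.10. The exceptions at the tunnel were Mrpl22, Mrpl24 and Mrpl44, with whole differences of 0.09 ± 0.11, 0.02 ± 0.08 and -0.03 ± 0.09 that were not called. Mrpl24 measured 10.99, 11.22, 11.41 and 11.16 in DN2, 11.33, 11.38, 11.39 and 11.36 in DN3, and 11.13, 11.18, 11.36 and 11.18 in DN4. Mrpl44, which has an RNase III-like fold, measured 10.37, 10.18, 10.21 and 9.98 in DN2, 10.17, 9.86, 10.01 and 9.93 in DN3, and 10.28, 9.91, 10.38 and 10.04 in DN4. The stages of both overlapped.

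The central protuberance faces the small subunit. Of the 7 members listed for it here, which need not be all, 6 were called higher from DN2 to DN4. At the second step 4 of them were called and at the first none. Mrpl46, Mrpl48, Mrpl38 and Mrpl18 rose at the second step by 0.42 ± 0.09, 0.45 ± 0.08, 0.37 ± 0.08 and 0.47 ± 0.12 (limma adjusted p from 0.00548 to 0.0176). Mrpl18 lost that call without DN3 replicate 3 or 4 or DN4 replicate 1 or 2 (up to 0.061). Mrpl40 rose by 0.48 ± 0.10 over the whole interval (limma adjusted p = 0.00473), Mrps30 is given above, and Mrpl27 was not called, at 0.18 ± 0.10 (limma adjusted p = 0.157). Mrpl46 measured 9.33, 9.55, 9.37 and 9.47 in DN2, 9.76, 9.61, 9.40 and 9.49 in DN3, and 10.17, 10.05, 9.85 and 9.86 in DN4.

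Mrps11, the small subunit member whose start lies 42 bases from that of Mrpl46 on the opposite strand, measured 7.64, 7.65, 7.71 and 7.79 in DN2, 7.79, 7.99, 7.64 and 8.28 in DN3, and 8.52, 8.24, 8.44 and 8.48 in DN4. In both genes DN2 and DN3 overlapped and all DN4 values lay above DN2. Over the whole interval Mrpl46 rose by 0.55 ± 0.09 (limma adjusted p = 0.00163) and Mrps11 by 0.72 ± 0.12 (limma adjusted p = 0.00138). The second step of Mrps11, 0.50 ± 0.12, was called (limma adjusted p = 0.0152) but not without DN4 replicate 1 (0.0518). Facing neighbours that are no members did not all move with them: of 21 tested, 6 were called higher and 2 lower in DN4 than in DN2, beside 24.8% and 22% of all genes. Ptcd2, which starts 108 bases from Mrps27, rose by 0.49 (limma adjusted p = 0.0053), whereas Gga3, 224 bases from Mrps7, fell by 0.40 (limma adjusted p = 0.00561), and Fau, 192 bases from Mrpl49, was at -0.09 (limma adjusted p = 0.373).

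Members with a motif and members without one were both called higher from DN2 to DN4. The calls covered 11 of 12 members with the YY1 motif, 10 of 12 with the ETS motif, 5 of 8 with the NRF1 motif, 5 of 5 with the E-box and 4 of 5 with TATAAA and 26 of 33 with none of these, beside 55 of all 67 matched members. Mrpl37, which rose most, holds the YY1 motif and the E-box. Mrps22 and Mrps27 hold the ETS motif, as do Mrpl27 and Mrpl33, which were called in no comparison. Mrpl17 holds the NRF1 motif, as do Mrpl22, Mrpl32 and Mrpl33, also called in no comparison. Mrpl36, with the YY1 motif and the E-box, rose by 0.51 ± 0.11 from DN2 to DN4 (limma adjusted p = 0.00655), and Mrpl12 and Mrpl47, which rose by 0.91 and 0.87, hold none of the 5 motifs in this window. These are descriptions with no test.

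The 12 members called in no comparison were Mrpl11, Mrpl16, Mrpl22, Mrpl24, Mrpl27, Mrpl32, Mrpl33, Mrpl44, Mrps2, Mrps16, Mrps31 and Mrps34. Mrps2, the counterpart of a bacterial small subunit protein, measured 9.52, 9.38, 9.67 and 9.54 in DN2, 9.49, 9.35, 9.49 and 9.59 in DN3, and 9.44, 9.32, 9.57 and 9.52 in DN4. Its whole difference was -0.07 ± 0.07 (limma adjusted p = 0.457), lower in DN4 in 4 of 4 sorts. Mrpl33 measured 7.70, 7.98, 8.66 and 8.49 in DN2, 8.35, 7.91, 8.41 and 8.40 in DN3, and 8.07, 7.82, 8.42 and 8.29 in DN4, with sorts 1 and 2 lower than sorts 3 and 4 in DN2, and its whole difference was -0.06 ± 0.14. The other whole differences were 0.17 ± 0.08 for Mrpl16, 0.15 ± 0.13 for Mrpl32, 0.04 ± 0.07 for Mrps16, 0.25 ± 0.13 for Mrps31 and 0.19 ± 0.08 for Mrps34. A difference that was not called does not show that the levels were equal.

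Other probe sets of the same genes did not always move alike. The 76 members have 156 probe sets with a single symbol, and 37 members have more than 1 bright enough to test. Of the 63 members called higher from DN2 to DN4, 32 have another bright probe set, which was below 0 for 8 and below -0.5 for 3, namely Mrpl15, Mrps15 and Mrps21. For Mrpl15, other probe sets gave 0.85, 0.71, 0.68 and 0.57 beside 0.52 for the one used, while the rest gave -0.61, -0.57 and -0.14. For Mrps15, a probe set with a mean level of 9.25 gave 0.39 beside 0.42, and one with a mean level of 4.79 gave -1.17. For Mrps21, the only other probe set, with a mean level of 5.40 against 9.0, gave -0.58 beside 0.47. Without probe sets that can match more than 1 transcript (suffixes _a, _s and _x), the whole difference was 0.37 for Mrpl1 (limma adjusted p = 0.105), 0.06 for Mrpl38 (limma adjusted p = 0.845), 0.40 for Mrpl58 (limma adjusted p = 0.0815) and -0.47 for Mrpl17. The probe sets then read had mean levels of 6.45, 5.95, 4.98 and 4.90 in that order, dimmer than the 7.80, 7.93, 10.47 and 8.86 of those left out. At the first step, the mean of all probe sets gave 0.34 for Mrpl52 (limma adjusted p = 0.054), 0.33 for Mrpl1 (0.215), 0.32 for Mrpl47 (0.184), 0.35 for Mrpl54 (0.266) and 0.37 for Mrps6 (0.104), none of them called. At the second it gave 0.23 for Mrpl1 (0.341), 0.35 for Mrpl47 (0.12), 0.24 for Mrpl48 (0.0923), 0.32 for Mrpl42 (0.395) and 0.32 for Mrps11 (limma adjusted p = 0.119), also not called. Over the whole interval it was 0.56 for Mrpl42 (limma adjusted p = 0.115), 0.28 for Mrpl38 (limma adjusted p = 0.0709) and 0.16 for Mrpl54 (limma adjusted p = 0.538). The probe set that Mrpl30 shares with Gm6238 had mean levels of 10.24, 10.63 and 10.67 in DN2, DN3 and DN4, and that of Mrpl53 and Ccdc142 had 8.22, 8.47 and 8.86.

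Proteins of the mitochondrial ribosome that carry other symbols also rose. All 4 of those measured were called higher from DN2 to DN4, with a median of 0.49. Dap3, a GTP-binding protein of the small subunit, rose by 1.0 ± 0.09 (limma adjusted p = 5.19e-05), with 0.48 ± 0.09 at the first step and 0.52 ± 0.09 at the second (limma adjusted p = 0.00632 and 0.00332). Chchd1 rose by 0.49 ± 0.12 over the whole interval, Gadd45gip1 of the large subunit by 0.48 ± 0.10 and the pentatricopeptide repeat protein Ptcd3 by 0.42 ± 0.08 (limma adjusted p from 0.00377 to 0.00954), the call of Gadd45gip1 being lost without the sort as a block (limma adjusted p = 0.0723).

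Mitochondrial translation factors were called higher in 9 of 13 cases from DN2 to DN4 and lower in none, with a median of 0.48. Tsfm, Gfm1 and Tufm, the elongation factors Ts, G and Tu of the organelle, rose by 0.97 ± 0.11, 0.91 ± 0.11 and 0.88 ± 0.09 (limma adjusted p from 1.44e-04 to 2.36e-04). Their first steps, from 0.40 to 0.42, were called with all arrays (limma adjusted p from 0.0167 to 0.0295), but not without the sort as a block (0.057 to 0.117). Gfm1 lost that call without DN2 replicate 1, 2 or 4 or DN3 replicate 1, 3 or 4, Tsfm without DN2 replicate 1, 2 or 4 or DN3 replicate 1, 2 or 4, and Tufm without DN2 replicate 4 or DN3 replicate 3 or 4 (limma adjusted p up to 0.0906). Without probe sets that can match more than 1 transcript, the whole difference of Gfm1 was 0.22 (limma adjusted p = 0.365). Gfm2, which helps to recycle the ribosome, rose at the second step by 0.58 ± 0.12 (limma adjusted p = 0.00716), and the difference between its steps, 0.59 ± 0.20, was not called (limma adjusted p = 0.0958). Mitochondrial aminoacyl-tRNA synthetases were higher in 8 of 15 and lower in none, with a median of 0.38. Aars2 and Lars2, which charge the tRNAs for alanine and leucine, rose at the second step by 0.75 ± 0.17 and 0.61 ± 0.09 (limma adjusted p = 0.0113 and 0.00232), Lars2 at -0.24 over the mean of all its probe sets.

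Assembly factors of the mitochondrial ribosome were more mixed. Over the whole interval 11 of 25 were called higher and none lower, with a median of 0.24, and at the second step 7 were higher and 1 lower. Without the sort as a block, 5 of the 25 were higher over the whole interval, beside 17.9% of all genes. At the second step 2 were then higher and 1 lower, beside 7.17% of all genes higher and 1015 of 11170 lower. The shares called higher without the block were thus near those of all genes. Noa1, a GTPase, rose by 0.75 ± 0.11 (limma adjusted p = 9.12e-04). Mterf3, a factor for assembly of the large subunit, was the one that fell at the second step, by 0.46 ± 0.10 (limma adjusted p = 0.00959). Its fall was not called without probe sets that can match more than 1 transcript (-0.36, limma adjusted p = 0.11). Mterf3 had been called higher at the first step, but not without the sort as a block (0.32, limma adjusted p = 0.168). Of 17 genes for the upkeep and transcription of mitochondrial DNA and the processing of its RNA, 7 were higher over the whole interval and none lower, with a median of 0.27. Polg, the catalytic subunit of the mitochondrial DNA polymerase, rose by 1.29 ± 0.12 (limma adjusted p = 6.21e-05), with 0.96 ± 0.12 at the second step. Its accessory subunit Polg2 rose at the first step by 0.53 ± 0.11 (limma adjusted p = 0.00971) and fell at the second by 0.44 ± 0.11 (limma adjusted p = 0.0161). Neither was called without the sort as a block (0.0973 and 0.132), and the fall was also lost without DN3 replicate 2, DN3 replicate 4 or DN4 replicate 1 (up to 0.0605).

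Mitochondrial protein import, through which all members must pass, had 17 of 25 genes called higher over the whole interval and none lower, with a median of 0.41, and 10 called higher at the first step (6 without the sort as a block). Tomm40, the channel of the outer membrane, rose by 0.62 ± 0.08 and then by 0.55 ± 0.08, in all by 1.17 ± 0.08 (limma adjusted p = 1.08e-05). Hspd1, the folding chaperonin of the matrix, rose by 0.42 ± 0.07 at the first step (limma adjusted p = 0.00545) and by 0.57 ± 0.07 in all. Of 12 factors linked to the control of such genes, 4 were higher and 2 lower over the whole interval, shares near those of all genes (24.8% and 22%). The transcription factor Nrf1 and the coactivators Ppargc1b and Pprc1 rose by 0.53 ± 0.09, 1.04 ± 0.19 and 0.51 ± 0.09 (limma adjusted p from 0.00165 to 0.00236). Mycn, a transcription factor of the MYC family, fell by 2.11 ± 0.14 (limma adjusted p = 1.12e-05), with 2.10 ± 0.14 of this at the second step.

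For comparison, cytosolic ribosomal proteins, chosen by symbol after results were known, had a median of 0.02 from DN2 to DN4, with 6 of 46 called higher and 2 lower. Respiratory chain and ATP synthase genes, chosen in the same way and encoded in the nucleus, had a median of 0.25, with 37 of 77 higher and 4 lower. Beside the 82.9% of mitoribosomal members called higher, both shares were lower, and these differences between lists were not tested.

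**Figure D3:**
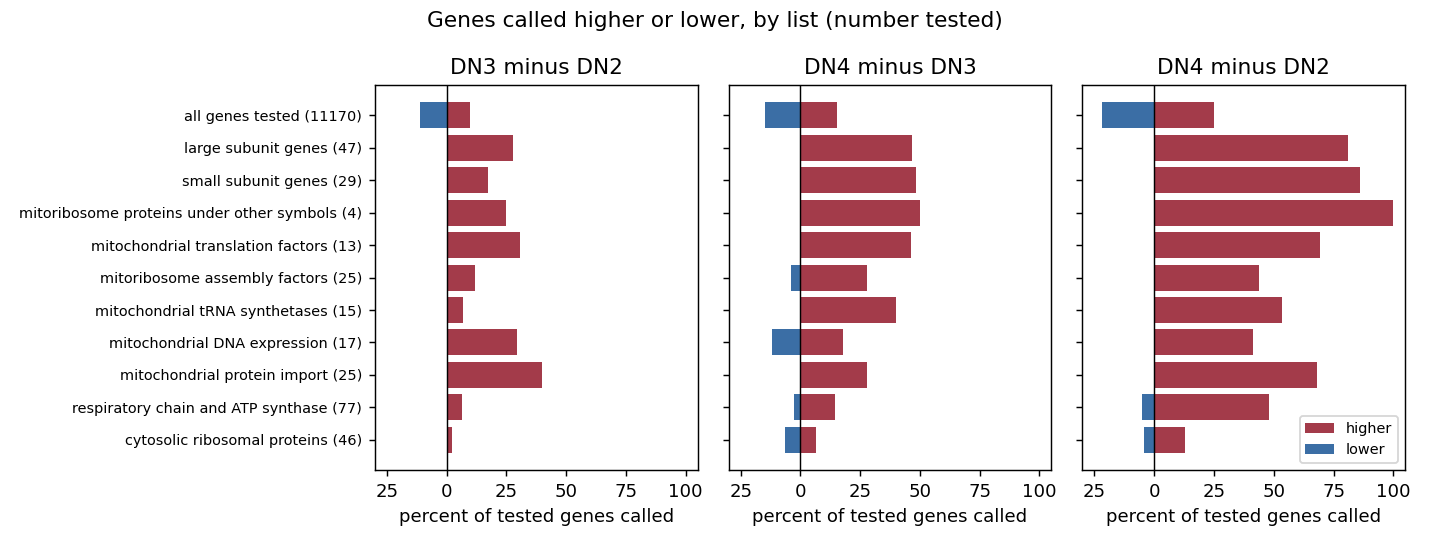
Percent of tested genes called higher (red, right of 0) or lower (blue, left of 0) in each list, for the 3 comparisons; the number tested is in parentheses. The members are grouped into subunits by symbol. Over DN4 minus DN2, both these groups, mitoribosome proteins under other symbols, translation factors and import genes lie far to the right with nothing to the left. Cytosolic ribosomal proteins lie close to 0.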

How the data were processed

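The authors deposited linear intensity values, 1 signal per probe set and array. The submitters' processing notes name GCOS; which version, algorithm and target were used is not given in the sources used here. RNeasy Mini columns and amplification by 2 rounds of cDNA synthesis preceded labelling, per the labels' protocols. Groups and sort numbers came from the sample titles.

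Of 45101 probe sets (64 of them controls), 34945 had 1 symbol, 932 several and 9211 none listed; symbols were updated through Entrez identifiers to RefSeq (GRCm38.p6) for 34741. A gene was read from the probe set of highest mean signal. Signals were quantile normalized, an offset of 5.69 (the 25th percentile) was added and log2 taken, so differences of dim genes are understated. Genes above the table median (signal 20.6, log2 4.71) on at least 4 arrays were kept. The 12 arrays entered a single model of stage means, with the sort as a fixed block, in limma 3.58.1 (lmFit and eBayes, two-sided tests) under R 4.3.3. This leaves 6 residual degrees of freedom, and with Benjamini-Hochberg adjustment. The fit was tested on simulated data. Motifs were searched in Python 3.11.15, and figures drawn with matplotlib 3.10.9 and pandas 2.3.3.

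Per the labels, same-numbered arrays come from 1 pool of cells. After subtraction of the stage mean, arrays correlated at 0.251 to 0.342 within a sort and at most 0.109 between sorts, so the block was kept. Values of arrays of a stage correlated at 0.969 to 0.985, with 0 identical pairs.

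The members and the lists were chosen with earlier results of these data known. Genes named by rule are, in each comparison, the 10 greatest rises and falls called and alike in 4 of 4 sorts, the 5 members of highest and of lowest mean level, members called in opposite directions at the steps, the stalk, exit tunnel, central protuberance and exchanged members, Mrps36, and up to 4 called genes of each pathway list; not every one is printed. Members shown for a probe set, motif, shared start, difference between steps or lack of a call, and Mrpl4, Mrpl49, Mrpl58, Mrps14 and Mrps18b, were also picked after their values were seen. Alternatives covered the block, normalization, offset, filter, choice of probe sets, arrays fitted, variance moderation, array weights, RNA quality, pairs of sorts and each array left out.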

Additional observations from a re-analysis of the deposited data

Results flagged for a closer look

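Among 165 groups of 4 arrays (53 members named here, the member median and the Gapdh ratio, each in 3 stages), 9 had 1 array set apart from the other 3, with a gap to the nearest that took up most of the range of the group (Dixon's test). About 1 group in 20 does so by chance. Mrpl52 was set apart in every stage, at 9.19 in DN2 replicate 4 (others 9.57 to 9.59), 10.29 in DN3 replicate 1 (others 9.98 to 10.03) and 10.45 in DN4 replicate 3 (others 10.22 to 10.25), and its rise from DN2 to DN4 was 0.74 to 0.87 with any 1 array left out. Mrpl32 stood at 9.73 in DN3 replicate 1 (others 9.44 to 9.48), and Mrpl33 at 7.91 in DN3 replicate 2 (others 8.35 to 8.41). Mrps21 stood at 8.32 in DN2 replicate 1 (others 8.93 to 9.05), Mrpl36 at 8.47 in DN4 replicate 1 (others 8.74 to 8.78), and Mrps36 at 8.95 in DN4 replicate 2 (others 9.12 to 9.15). The median level over the members was 9.31 in DN2 replicate 1, beside 9.37 to 9.39 on the other DN2 arrays.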

How the results depend on the processing

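The median of DN4 against DN2 stayed above 0 under every alternative run, and the count of 63 higher of 76 mostly stayed within 1.5 times. Exceptions were 9 with no normalization between arrays (median 0.17, beside 3.89% of all genes) and 40 with the Gapdh ratio as a covariate (beside 16.6%). Further exceptions were 26 and 28 in sorts 1 and 2 or 3 and 4 alone (beside 10.6% and 13.5%). Leaving out 1 array gave 52 to 63 (beside 21% to 24.7%). Without probe sets that can match more than 1 transcript, which leaves 62 members to test, 43 were higher (beside 24.7%) and 1 lower. For DN4 against DN3 the 36 higher became 20 without the replicate block (beside 7.17% of all genes) and 20 with arrays centred on their median (beside 10.1%). No normalization gave 0 higher (beside 0.589%), with 2 lower and a median of -0.16. No filter gave 21 (beside 5.7%), and either pair of sorts alone gave 0 (beside 0.833% and 1.14%). With 1 array left out the count was 21 to 38 (beside 9.22% to 17.1%). The median was 0.34 over the 62 members left without probe sets that can match more than 1 transcript. For DN3 against DN2 the 18 higher became 6 without the replicate block (beside 4.78% of all genes), 5 with no normalization (4.97%) and 5 with no filter (3.53%). Averaging the probe sets of a gene gave 10 (beside 9.15%). Leaving out probe sets that can match more than 1 transcript gave 11 of 62 (beside 9.74%). The count was 7 with only the 8 arrays compared (beside 6.82%) and 0 with the Gapdh covariate (beside 1.41%). Either pair of sorts alone gave 0 (beside 0.931% and 2.19%), and 1 array left out gave 5 to 17 (beside 6.37% to 9.71%). The median was 0.29 with centred arrays and 0.33 with no normalization. The no-block fit still called 50 members in DN4 against DN2 (beside 17.9% of all genes), and the medians without the block were 0.19, 0.28 and 0.47. A pair of sorts holds 2 arrays per stage, and the causes of the other changes were not tested. With no normalization, 17 members were above 0 in DN4 against DN3, beside 72 in the main fit. In DN4 against DN2, 58 were above 0, beside 73. The medians of all genes were then -0.41 and -0.29. Genes listed next as turned are only those named here and called in the main or the alternative fit. Below 0 in DN4 against DN3 with no normalization were Gadd45gip1 (-0.02), Mrpl46 (-0.02), Mrps7 (-0.03), Mrps21 (-0.03), Mrpl15 (-0.04), Mrps11 (-0.04) and Mrpl45 (-0.11). So were Noa1 (-0.11), Mrpl10 (-0.12), Mrpl49 (-0.13), Mrpl36 (-0.14), Mrpl4 (-0.16), Mrpl38 (-0.17) and Mrps18a (-0.21). In DN4 against DN2 they were Mrpl34 (-0.06) and Mrps30 (-0.07). The mean of all probe sets turned Mrpl17 in DN3 against DN2 (-0.05), Lars2 and Mrps21 in DN4 against DN3 (-0.24 and -0.03), and Mrps15, Mrps21 and Mrpl33 in DN4 against DN2 (-0.12, -0.05 and 0.39). Without probe sets that can match more than 1 transcript, Mrpl17 was at -0.36 in DN3 against DN2 and -0.47 in DN4 against DN2. Mrpl15 was then at -0.38 in DN4 against DN3 and -0.57 in DN4 against DN2.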
